A study of Mus musculus with 6 samples.

Results

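This account covers 9 early response genes, Ier2, Ier3, Ier5, Gadd45a, Gadd45b, Gadd45g, Phlda1, Arc and Myc, in osteocyte-like cells exposed to low-intensity pulsed ultrasound (LIPUS). Each gene was found by its symbol among the 53797 genes of a gene expression table, and all 9 were present once. The genes were selected on the FPKM of both groups in these same samples. Their levels are therefore given as a description, with no test, and support nothing by themselves. RNA was sequenced from MLO-Y4 cells, a mouse cell line with osteocyte features. The LIPUS group comprised 3 cultures that received pulsed ultrasound at 1.5 MHz and 30 mW/cm2 for 20 min. The Control group comprised 3 cultures of the same line without ultrasound. RNA was extracted 30 min after the end of the stimulation. All cultures came from a single line, so the values describe that line and not osteocytes in bone. The cells were stimulated in wells of a 6-well plate, in which 3 transducers were on and the others off, and the study describes a control culture that stood apart from the other control cultures.

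Early response genes, also called immediate early genes, are transcribed within minutes of a stimulus without the need for new protein. Kinase cascades such as the ERK pathway activate factors already bound at their promoters, and many of their mRNAs are short-lived. Ier2, Ier3 and Ier5 are named as immediate early response genes. The Gadd45 proteins are small stress sensors that bind the kinase Map3k4 upstream of p38 and JNK, as well as Pcna and Cdk1. Phlda1 carries a pleckstrin homology-like domain, Arc is known for its role at synapses and in endocytosis, and Myc is a transcription factor that promotes growth.

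The table gave a single FPKM (fragments per unit of transcript length and of sequencing depth) for each group, pooled over its libraries. No SD or confidence interval can therefore be computed from it, and 1 deviating culture cannot be seen in a group value. The tests that the table also holds were not used here. The methods state a round number of reads per sample, which cannot be checked from group FPKM. Ratios are given as log2 of LIPUS over Control after addition of 0.1 FPKM to both, and folds are plain ratios of the FPKM. A fold of 1.5 was used as a mark of size. The table gave 8145 genes the status OK, its mark of enough reads for a comparison, and 37321 genes were listed at 0 in both groups. The median log2 ratio of the genes with status OK was 0.0042, and 95% of them lay between -0.74 and 0.76. The label of the cells was compared with marker genes. Pdpn, an early osteocyte marker, stood at 402 FPKM in LIPUS and 295 in Control, and Gja1, the gap junction protein connexin 43, at 170 and 176. Dmp1, a matrix protein of osteocytes, stood at 7.65 and 3.04, whereas the mature osteocyte genes Sost, Mepe and Fgf23 were listed at 0 in both groups. Of the other osteocyte markers examined, Cd44 stood at 212 and 200, and Phex, without the status OK, at 0.19 in LIPUS and 0 in Control. The osteoblast markers with status OK were lower in LIPUS, with Alpl, the bone alkaline phosphatase, at 190 and 293 FPKM, the osteoblast factor Runx2 at 14.8 and 24.4, and the collagen gene Col1a1 at 731 and 891. Without that status, the osteoblast factor Sp7 stood at 3.75 and 5.86, and Bglap, the matrix protein osteocalcin, at 1.58 in LIPUS and 0 in Control. Dmp1 was at least 1.5-fold higher, and Alpl and Runx2 were at least 1.5-fold lower. The part of such marker differences in the values of the early response genes was not tested. In RNA from whole cultures, fewer cells that express a gene and less RNA per cell cannot be told apart.

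Of the 9 genes, 8 had the status OK, and all 8 were higher in the LIPUS group. Gadd45b, Arc, Ier5, Gadd45g, Phlda1 and Ier3 were at least 1.5-fold higher, in that order of fold. Ier2 and Myc were higher by less than this. Gadd45a, at a low level and without the status OK, was lower in the LIPUS group. The median log2 ratio of the 8 genes was 0.69. Among all genes with status OK, 4.64% were at least 1.5-fold higher with LIPUS and 4.67% at least 1.5-fold lower. Since the same values chose the 9 genes, nothing is read from the gap between 6 of 8 and this background.

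**Figure D1:**
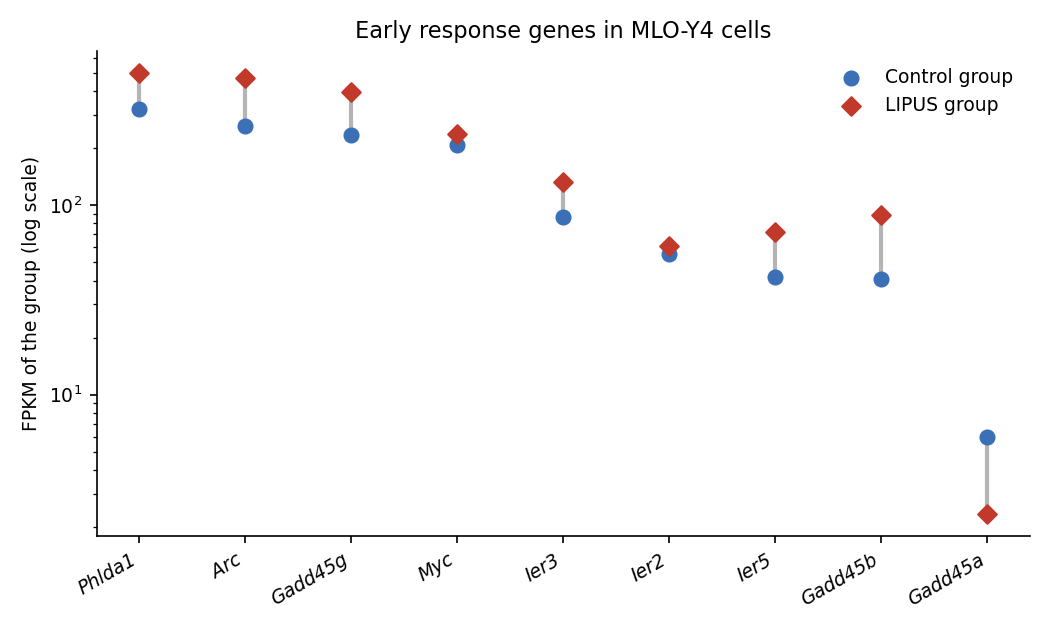
FPKM of the 9 genes in the Control group (circles) and the LIPUS group (diamonds) on a log axis, in order of the Control level, with 1 pooled value for each group and no error bars. The LIPUS value lies above the Control value for all genes except Gadd45a, and the gap is smallest for Ier2 and Myc.

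The levels differed widely between the genes. FPKM is scaled by transcript length, so levels can be set side by side between genes. In the Control group, the order from high to low was Phlda1, Arc, Gadd45g, Myc, Ier3, Ier2, Ier5, Gadd45b and Gadd45a. In the LIPUS group the order among the upper genes was the same down to Ier3, and Gadd45b and Ier5 stood above Ier2. Without a spread between cultures, no neighbours in either order can be called different. The mean of both groups ranked Phlda1 222nd, Arc 249th and Gadd45g 283rd among the genes with status OK, so these were among the abundant mRNAs of the cultures.

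Ier5 (ENSMUSG00000056708; GRCm38 chr1:155096361-155099636, minus strand) encodes a nuclear protein linked to heat shock factor 1. It stood at 72.3 FPKM in the LIPUS group and 41.5 in the Control group. The LIPUS value was 1.74-fold higher, with a log2 ratio of 0.80 that exceeded those of 97.8% of the genes with status OK. Ier3 (ENSMUSG00000003541; chr17:35821684-35822923, plus strand) encodes a regulator of survival and of ERK signalling, and is a target of NF-kB and p53. It stood at 133 FPKM in LIPUS and 86.9 in Control, a 1.53-fold higher value. Ier3 was the gene closest above the 1.5-fold mark, followed by Phlda1. Ier2 (ENSMUSG00000053560; chr8:84661331-84662852, minus strand) encodes a nuclear protein reported to affect cell motility. It stood at 60.9 FPKM in LIPUS and 55.2 in Control, a 1.10-fold higher value. Of the genes with status OK, 2448 had a ratio at least as high as that of Ier2. Ier2 and Ier5 had nearly the same mean level, 58.0 and 56.9 FPKM, but their log2 ratios were 0.14 and 0.80. Summed over the 3 genes, the Ier mRNAs amounted to 266 FPKM in LIPUS and 184 in Control, and the share of Ier2 in this sum was 22.9% in LIPUS against 30.0% in Control.

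The Gadd45 genes showed the highest and the lowest ratio of the set. Gadd45b (ENSMUSG00000015312; chr10:80930073-80932204, plus strand), a gene induced by NF-kB and TGF-beta that restrains JNK signalling, stood at 88.6 FPKM in LIPUS and 40.8 in Control. The LIPUS value was 2.17-fold higher, and the log2 ratio of 1.12 exceeded those of 99.2% of the genes with status OK. Gadd45g (ENSMUSG00000021453; chr13:51846678-51848468, plus strand), a cytokine-inducible relative, was the most abundant of the 3. It stood at 393 FPKM in LIPUS and 234 in Control, a 1.68-fold higher value. Gadd45a (ENSMUSG00000036390), the family member known as a p53 target induced by DNA damage, stood at 2.36 FPKM in LIPUS and 6.02 in Control. The Control value was 2.55-fold higher, and the log2 ratio was -1.31. Every gene with status OK reached at least 6.70 FPKM in 1 of the groups, a level Gadd45a did not reach, and it was left out of the counts. Gadd45g made up 81.2% of the summed Gadd45 FPKM in LIPUS and 83.4% in Control, Gadd45b 18.3% and 14.5%, and Gadd45a 0.488% and 2.14%. The sum was 484 FPKM in LIPUS and 281 in Control, or 1.72-fold higher, with 158 FPKM of the difference from Gadd45g.

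Gadd45a also had a shared locus. It spans chr6:67035096-67037457 on the minus strand, and 859 of its bases, or 36.4% of the span, are overlapped by E230016M11Rik on the opposite strand. The table placed both in a merged locus that extends to position 67080654. E230016M11Rik stood at 1.64 FPKM in LIPUS and 0.583 in Control, 2.82-fold higher in LIPUS, also without the status OK. The direction for this noncoding transcript was thus opposite to that for Gadd45a. The libraries were stranded, but whether strand was used in computing the FPKM is not given in the sources used here. If it was not, reads of the shared bases cannot be told apart.

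Sequences upstream of the 3 Gadd45 genes and of Ier3 are shown because Gadd45a differed in direction from its relatives, and because Ier3 and Gadd45b are textbook NF-kB targets. The lines give 250 bases before the transcription start on the gene strand, 5′ to 3′, from RefSeq (GRCm38.p6), at chr10:80929841-80930090 (plus), chr13:51846425-51846674 (plus), chr6:67037408-67037657 (minus) and chr17:35821463-35821712 (plus). The gene spans given above follow another annotation with other starts, so the lines of Gadd45b, Gadd45a and Ier3 reach into those spans. Positions below are counted from the RefSeq start. Capitals mark matches to the motifs described after them.
Gadd45b: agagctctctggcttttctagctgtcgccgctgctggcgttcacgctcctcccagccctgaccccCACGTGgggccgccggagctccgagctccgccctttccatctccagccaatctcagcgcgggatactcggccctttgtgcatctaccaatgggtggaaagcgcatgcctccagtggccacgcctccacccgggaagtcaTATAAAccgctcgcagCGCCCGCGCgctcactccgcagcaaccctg
Gadd45g: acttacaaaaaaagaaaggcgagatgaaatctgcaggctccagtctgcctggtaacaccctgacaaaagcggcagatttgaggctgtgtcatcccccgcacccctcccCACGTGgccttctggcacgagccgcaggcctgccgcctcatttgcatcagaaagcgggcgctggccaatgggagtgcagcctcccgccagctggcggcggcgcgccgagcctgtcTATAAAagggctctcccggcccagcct
Gadd45a: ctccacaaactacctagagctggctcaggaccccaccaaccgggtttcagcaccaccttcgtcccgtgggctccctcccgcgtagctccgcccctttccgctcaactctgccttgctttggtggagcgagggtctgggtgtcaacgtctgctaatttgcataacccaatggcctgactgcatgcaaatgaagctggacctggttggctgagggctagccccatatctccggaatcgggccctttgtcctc
Ier3: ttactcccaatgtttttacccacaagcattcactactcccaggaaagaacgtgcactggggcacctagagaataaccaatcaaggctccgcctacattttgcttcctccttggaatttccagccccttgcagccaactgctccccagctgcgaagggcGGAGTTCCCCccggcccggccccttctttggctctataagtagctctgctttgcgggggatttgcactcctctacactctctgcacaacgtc
Windows of 250 bases before to 50 bases after the start were searched on both strands for 8 motifs. These were the cAMP response element CRE (TGACGTCA), the AP-1 site of Fos and Jun (TGANTCA), the EGR site (GCGNGGGCG), the E-box that Myc and Max can bind (CACGTG), the TATA box (TATAAA) and the MCAT element of TEAD factors (CATTCC). The CArG box of serum response factor and the NF-kB motif were also searched. RefSeq windows were matched for 5 of the 9 genes, namely Ier3, Ier5, Gadd45a, Gadd45b and Gadd45g. Those of Gadd45b and Gadd45g both held an E-box, at -185 to -180 and at -142 to -137 from the start, and a TATA box, at -46 to -41 and at -27 to -22. The Gadd45b window also held an EGR motif at -30 to -22, on the opposite strand. The Ier3 window held the NF-kB motif at -92 to -83, on the opposite strand, and that of Gadd45b held no match to it. The windows of Gadd45a and Ier5 held none of the 8 motifs. Near matches were not counted, such as TATAAG in place of TATAAA, which the windows of Ier5 and Ier3 held. Among 32817 mouse promoter windows of this length, 7.15% held the E-box, 13.6% the TATA box, 5.56% the EGR motif and 8.46% the NF-kB motif. The CRE, AP-1, MCAT and CArG box motifs, in 1.79%, 7.81%, 14.7% and 1.63% of all windows, were in none of the 5. Such matches describe the letters of these windows only and do not show binding. Whether they bear on the direction or size of any ratio was not tested. The 5 windows had a GC content of 54.0% to 62.3%, against a median of 52.7% over all windows.

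Phlda1 (ENSMUSG00000020205; chr10:111506286-111508645, plus strand) had the highest level of the 9 genes. It stood at 499 FPKM in LIPUS and 320 in Control, a 1.56-fold higher value and a log2 ratio of 0.64. The noncoding gene Gm28592 lies wholly within Phlda1 on the opposite strand and covers 1088 bases, or 46.1% of its span. Gm28592 stood at 311 FPKM in LIPUS and 187 in Control, 1.66-fold higher, so both genes of the overlapping pair were higher in LIPUS. As for Gadd45a, reads of the shared bases cannot be told apart if strand was not used.

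Arc (ENSMUSG00000022602; chr15:74669083-74672570, minus strand) stood at 466 FPKM in LIPUS and 261 in Control. The LIPUS value was 1.79-fold higher, and only Gadd45b among the 9 genes had a higher ratio. Because Arc is best known from neurons, 6 neuronal markers were examined. Map2 and Snap25 were listed at 0 in both groups, and the summed FPKM of the 6 was 24.0 in LIPUS and 31.3 in Control, most of it from Dlg4, a scaffold protein also made outside neurons, at 19.2 and 26.9. Syn1 stood at 3.44 and 2.94 FPKM, Tubb3 at 1.02 and 0.687 and Camk2a at 0.438 and 0.732, all without the status OK. Of 5 macrophage markers, Ptprc and Adgre1 were listed at 0 in both groups, Cd14 stood at 10.6 FPKM in LIPUS and 8.19 in Control, Cd68 at 1.72 and 5.32 and Csf1r at 0.233 and 0.236. Of 4 endothelial markers, Cdh5, Kdr and Tek were listed at 0 in both groups, and Pecam1 was at 0 in LIPUS and 0.496 in Control. The part of any of these markers in the value of Arc was not tested.

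Myc (ENSMUSG00000022346; chr15:61985391-61990374, plus strand) stood at 237 FPKM in LIPUS and 209 in Control. The LIPUS value was 1.14-fold higher, and 75.6% of the genes with status OK had a lower ratio. Its relatives Mycn and Mycl were listed at 0 in both groups, so Myc was the family member detected in these cells.

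**Figure D2:**
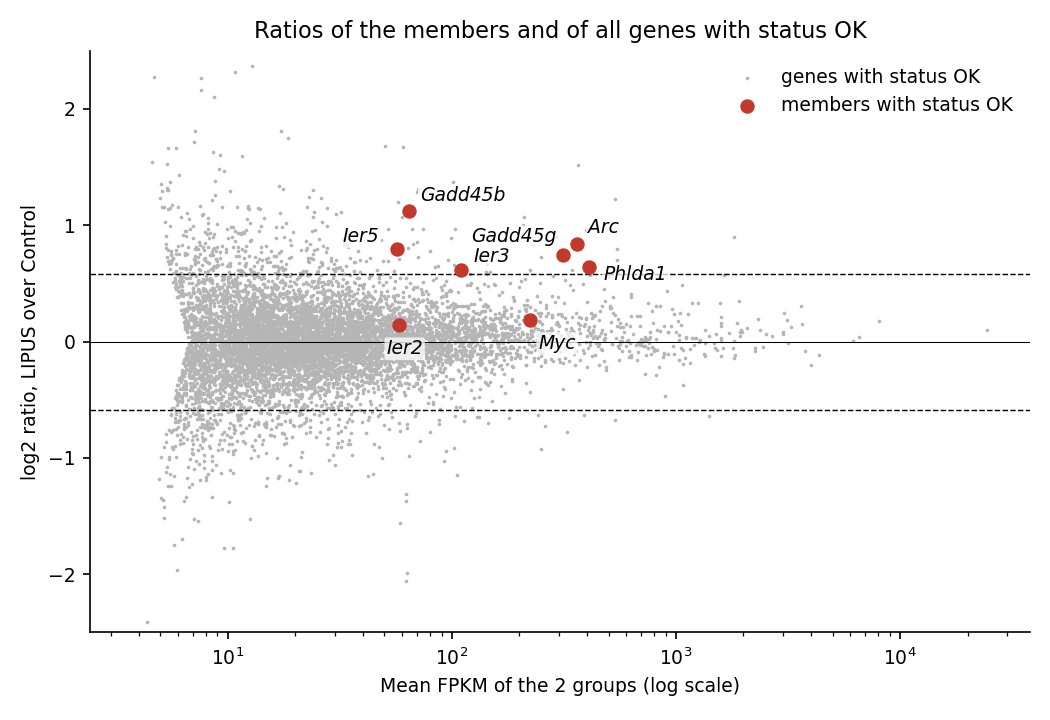
log2 ratio of LIPUS over Control against the mean FPKM of both groups (log axis) for the genes with status OK (grey) and the 8 early response genes with that status (red); dashed lines mark 1.5-fold, and 5 grey genes lie beyond the vertical range. Of the 8 genes, 7 lie above the upper quartile of all genes, with Ier2 below it, and Gadd45b, Arc and Ier5 lie above the range that holds 95% of all genes.

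Ratios spread less among abundant genes than among weakly expressed ones, and the background was therefore also counted by level. At a mean FPKM of 10 to 100, 3.47% of the genes with status OK were at least 1.5-fold higher and 3.52% at least 1.5-fold lower with LIPUS. Of the 3 genes of the set in this range, Gadd45b and Ier5 were higher by this measure and Ier2 was not. At 100 to 1000 FPKM, 3.1% of the genes were higher and 1.72% lower. Of the 5 genes of the set in this range, Arc, Gadd45g, Phlda1 and Ier3 were higher by this measure and Myc was not. These bands were chosen after the values had been seen.

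The 9 genes shared a compact structure, which played no part in their selection. In the GENCODE M21 annotation their lengths from first to last base ranged from 1240 bases for Ier3 to 4984 for Myc, against a median of 23610 for 7897 protein-coding genes with status OK. Only 10.5% of those genes were under 5000 bases. Ier2 and Ier5 had no intron, Ier3 and Phlda1 had 1, Arc and Myc 2, and the Gadd45 genes 3 each. At most 3 introns were found in 17.6% of the genes with status OK and in 67.9% of the 53 genes with that status in a list of other early response genes. Of these 53 genes, 35.85% were under 5000 bases, and their median length was 6714 bases. The share past 1.5-fold was also counted for compact genes. Among 504 genes with status OK under 5000 bases and with at most 3 introns, 10.5% were at least 1.5-fold higher and 5.56% at least 1.5-fold lower, whereas among the other 7393 the shares were 3.98% and 4.37%. These limits closely enclose the 9 genes, with Myc at 4984 bases and the Gadd45 genes at 3 introns. The class was therefore drawn around genes chosen on these same values, and its shares are no independent background. The compact genes include the 8 genes described here, and how far their length bears on the ratios was not tested.

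**Figure D3:**
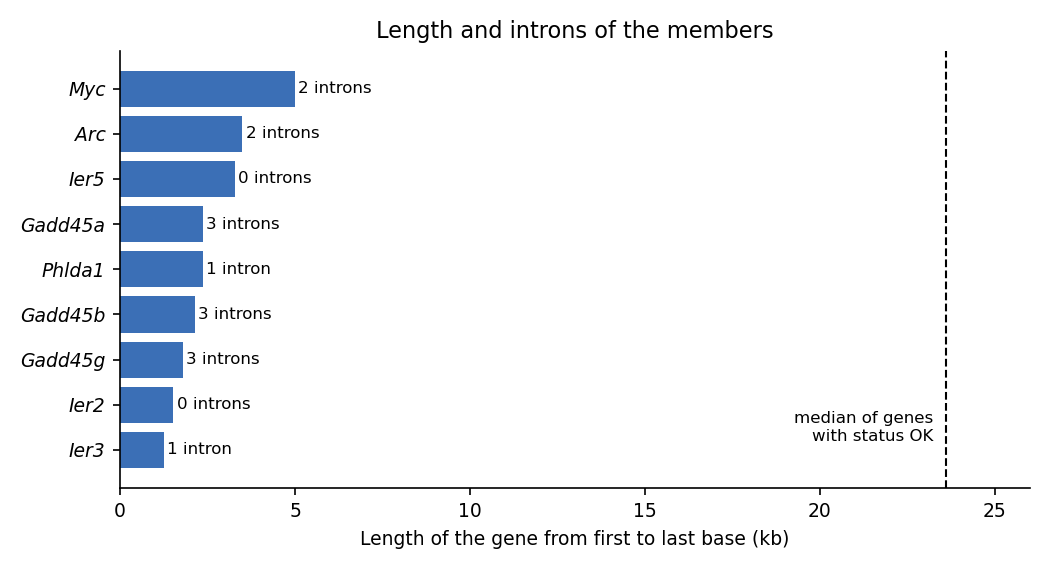
Length of the 9 genes from first to last base in kb (bars), with the number of introns of the longest coding transcript beside each bar and the median length of the protein-coding genes with status OK as a dashed line. All 9 genes are under 5000 bases, and the median of the protein-coding genes with status OK is 23610 bases.

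The pentamer ATTTA is the core of AU-rich elements, through which proteins such as Zfp36 speed the decay of many early response mRNAs. It occurred in the 3′UTR of 5 of the 9 genes (55.6%), compared with 68.7% of the genes with status OK and 94.3% of the other early response genes. These shares depend on length, and the median 3′UTR had 612, 1072 and 1216 bases, in the same order. Per kb of 3′UTR, the median number of copies was 0.93, 1.39 and 2.75. Ier3 had 5 copies in 613 bases, a density above that of 98.7% of the genes with status OK. Phlda1 had 3 copies in 612 bases, Myc 2 in 442, Gadd45a 2 in 563 and Ier5 2 in 2143. Ier2, Gadd45b, Gadd45g and Arc had none. The genes without a copy included Gadd45b, with the highest log2 ratio of the set, and Ier2, with the lowest of those with status OK. Whether copies of the pentamer bear on the ratios was not tested.

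Genes of the same families and pathways were then examined. Lists overlap in a few genes, and none of their counts is a test. Among 7 relatives, Ier3ip1, which encodes an endoplasmic reticulum protein named for its interaction with Ier3, stood at 138 FPKM in LIPUS and 89.9 in Control, 1.54-fold higher. Ier5l stood at 25.5 and 23.3 FPKM, and Phlda3, a p53-induced inhibitor of Akt, at 52.3 and 54.0. Gadd45gip1, whose product binds the Gadd45 proteins, stood at 5.21 and 3.93 FPKM without the status OK. Phlda2 was listed at 0 in both groups, as Mycn and Mycl were.

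The binding partners and downstream kinases of the Gadd45 proteins included 8 with status OK. Of these, 0 were 1.5-fold higher or lower, which is near the background of 4.64% and 4.67%, and their median log2 ratio was -0.0063. The highest ratios of these 8 were those of Map2k3, a kinase that activates p38, at 120 FPKM in LIPUS and 107 in Control, of the cell cycle inhibitor Cdkn1a at 188 and 171, and of the replication clamp Pcna at 203 and 188. The lowest were those of Map3k4, which Gadd45 proteins bind, at 7.35 and 9.03 FPKM, of Mapk14 (p38 alpha) at 20.2 and 23.5, and of Mapk8 (JNK1) at 17.6 and 19.4. Map2k7, a kinase that activates JNK, appeared in 2 rows and was not among these 8. Its row with status OK stood at 25.9 FPKM in LIPUS and 21.1 in Control, a log2 ratio of 0.29 above that of Map2k3, and with this row the median of the 9 was 0.097.

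The Myc network comprised the partner Max and the factors that compete with or regulate Myc. Of 10 with status OK, 2 were at least 1.5-fold higher and 2 at least 1.5-fold lower, beside 4.64% and 4.67% of all genes with that status, and the median log2 ratio was -0.18. Pim1, a kinase that cooperates with Myc, stood at 14.3 FPKM in LIPUS and 7.35 in Control, and the Max-binding repressor Mxd3 at 10.95 and 6.25. Fbxw7, the ubiquitin ligase subunit that marks Myc for degradation, stood at 4.55 FPKM in LIPUS and 8.09 in Control, and the Max-binding repressor Mnt at 5.84 and 8.89. Mlx, a Max-like protein, had the next lowest ratio, at 31.7 and 46.0 FPKM, and Mxd4, at 7.56 and 7.62, came next below Mxd3. Max itself stood at 48.3 and 59.4. The 12 Myc targets were all measured with status OK, and 0 were 1.5-fold higher or lower, again near the background of 4.64% and 4.67%. Their median log2 ratio was -0.11, and 3 had a ratio above 0, namely the polyamine enzymes Srm, at 194 FPKM in LIPUS and 182 in Control, and Odc1, at 195 and 184, and the cap-binding protein Eif4e, at 172 and 164. The lowest were the cyclin Ccnd2, at 17.5 and 25.7 FPKM, the pyrimidine enzyme Cad, at 26.2 and 37.6, and the nucleolar protein Nop56, at 232 and 268.

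Other early response genes, a list of 59 without the 9 genes, included 53 with status OK. At least 1.5-fold higher in LIPUS were 20, or 37.7%, beside 4.64% of all genes with status OK. At least 1.5-fold lower were 3, or 5.66%, near the 4.67% of all genes. A ratio above 0 was found for 37. The median log2 ratio was 0.44, below the 0.69 of the 8 genes of the set, and many of these genes were known to be high in these data when the lists were drawn up. The highest log2 ratios were those of the zinc finger factors Egr4 (1.53), Egr2 (1.37) and Egr3 (1.26). Egr4 was weakly expressed, at 7.99 FPKM in LIPUS and 2.70 in Control, whereas Egr2 stood at 147 and 56.6. The AP-1 subunits Fosb and Junb, the nuclear receptors Nr4a1 and Nr4a2, and the factors Egr1, Klf10 and Csrnp1 were also past 1.5-fold. So were the secreted factors Ctgf, Cyr61 and Il6, the prostaglandin synthase Ptgs2, the kinase Plk2 and the inhibitors and decay factors Dusp5, Socs3, Trib1, Zfp36 and Btg2. The most abundant of them was Ctgf, at 2375 FPKM in LIPUS and 1271 in Control, followed by Junb at 673 and 415 and Cyr61 at 523 and 269. The 3 lower genes were the chemokine Ccl2, at 12.9 FPKM in LIPUS and 23.7 in Control, the mRNA decay factor Zfp36l1, at 24.3 and 38.5, and the NF-kB regulator Nfkbiz, at 17.3 and 27.3.

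**Figure D4:**
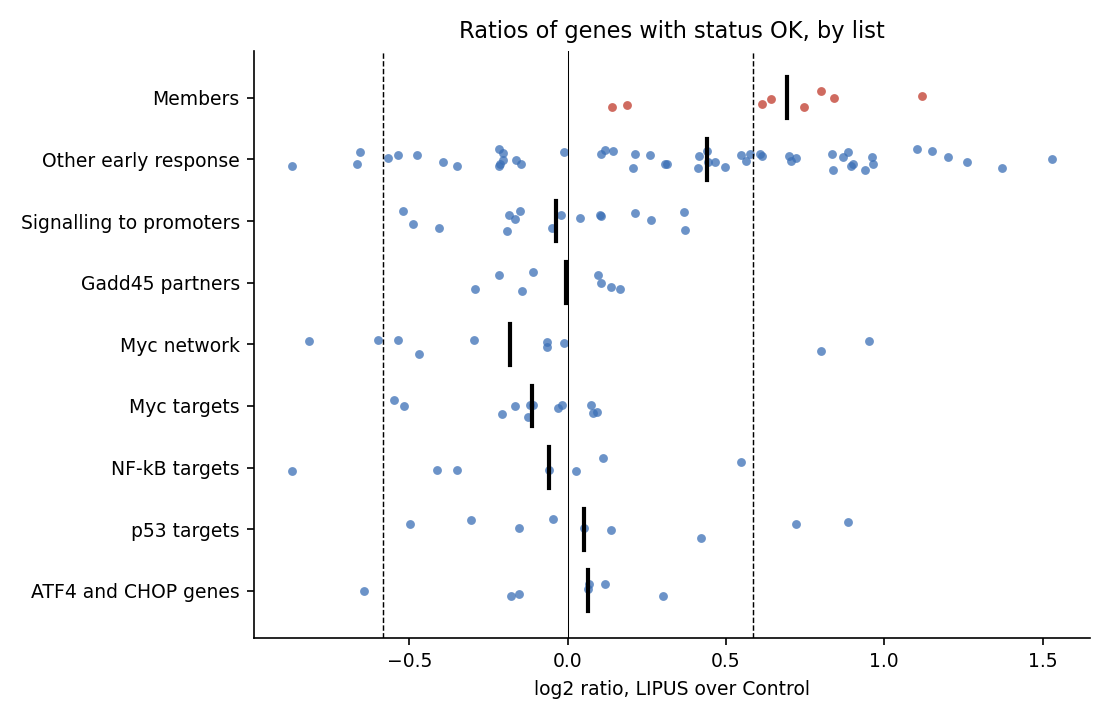
log2 ratio of LIPUS over Control for the genes with status OK in 9 lists (relatives and cell type markers are not drawn), with 1 point for a gene, a bar at the median of the list and dashed lines at 1.5-fold; vertical scatter within a list carries no meaning, and some genes belong to 2 lists. The 8 early response genes of the set have a median of 0.69 and the other early response genes one of 0.44, while the medians of the other 7 lists drawn lie between -0.18 and 0.07. Map2k7, which appeared in 2 rows, is not drawn. With its row of status OK, the median of the Gadd45 partners is 0.097.

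Each gene of the set was also placed beside the early response gene with the nearest log2 ratio. This likeness rests on a single ratio, from 1 value in each group, and says nothing of common control. Gadd45b (1.12) was nearest to Zfp36 (1.10), Arc (0.84) to Klf10 (0.84), Ier5 (0.80) to Egr1 (0.83) and Gadd45g (0.75) to Btg2 (0.72). Phlda1 (0.64) and Ier3 (0.61) were both nearest to the phosphatase gene Dusp5 (0.61). Myc (0.19) was nearest to the kinase gene Sik1 (0.21), and Ier2 (0.14) to the antiproliferative gene Btg1 (0.14). Of the 53 other early response genes, 5 had a higher ratio than Gadd45b, and 34 had a higher ratio than Myc.

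The transcripts of the signalling proteins that act on early response promoters, among them serum response factor (Srf), its cofactors, Creb1 and the ERK pathway, were examined next. Of 16 with status OK, 0 were 1.5-fold higher or lower, a count near the background of 4.64% and 4.67% of all genes with status OK, and the median log2 ratio was -0.036. The highest were Mapkapk2, a kinase downstream of p38, at 50.4 FPKM in LIPUS and 38.9 in Control, and the Srf partners Elk4, at 14.1 and 10.9, and Elk3, at 75.2 and 62.6. The lowest were the coactivator Ep300, at 10.9 and 15.7 FPKM, the kinase Rps6ka3, at 11.02 and 15.5, and the Srf coactivator Mkl1, at 22.3 and 29.6. Srf itself stood at 80.5 and 74.8.

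Lists of genes that share a known regulator with single members of the set were too short to read a few genes past 1.5-fold against the background of 4.64% higher and 4.67% lower. Of 7 NF-kB targets with status OK, a class to which Ier3 and Gadd45b belong, 0 were at least 1.5-fold higher and 1 (14.3%), Ccl2, was at least 1.5-fold lower. The highest was the inhibitor Nfkbia, at 30.5 FPKM in LIPUS and 20.8 in Control, followed by Relb, at 13.8 and 12.8, and Sod2, at 14.3 and 14.1. Below them all stood Ccl2, then the inhibitor of apoptosis Birc3, at 6.38 and 8.53 FPKM, and the chemokine Cxcl1, at 16.5 and 21.1. Of 9 p53 targets, a class to which Gadd45a belongs, 0 were at least 1.5-fold lower and 2 (22.2%), Plk2 and Btg2, were at least 1.5-fold higher, and both are also in the early response list. Mdm2, the ubiquitin ligase of p53, stood at 108 FPKM in LIPUS and 80.4 in Control. The lowest were Zmat3, at 7.02 and 9.96 FPKM, Ccng1, at 47.4 and 58.6, and Sesn2, at 7.93 and 8.84. The last list was tied to the stress factors ATF4 and CHOP, which also act on Gadd45a. It included the genes of these factors, Atf4 and Ddit3. Of its 7 genes with status OK, 0 were at least 1.5-fold higher and 1 (14.3%) was at least 1.5-fold lower. This was the glutathione-degrading enzyme Chac1, at 5.27 FPKM in LIPUS and 8.30 in Control. Atf5 was the highest of the 7 genes, at 94.6 and 76.8 FPKM, followed by Ddit3, at 21.2 and 19.6, and Atf4, at 337 and 321. Asns, at 84.4 and 95.7 FPKM, and Sesn2 had the next lowest ratios after Chac1.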

How the data were processed

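RNA from 3 LIPUS-treated and 3 control cultures of MLO-Y4 cells was sequenced as paired-end reads of 100 bases from stranded mRNA libraries. Per the methods, reads were trimmed with Trimmomatic 0.36 and mapped with TopHat 2.1.0, which used bowtie 2.2.6.0, on the GRCm38 genome. Cufflinks is named as version 2.2.1 in the methods and as 2.1.1 in the submitters' processing notes. The authors deposited a Cuffdiff gene table with 1 FPKM for each group, pooled over its libraries. The methods give the depth only as a round number of reads per sample, which was not checked here, and no test was run. The authors' own log2 fold changes, test statistics, p-values, q-values and significance calls are in the table and were not used. The status given by Cuffdiff, OK or NOTEST, was used as a filter.

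Ratios were computed with a pseudocount of 0.1 FPKM in Python 3.11.15 with numpy 2.4.6 and pandas 2.3.3, drawn with matplotlib 3.10.9, and the steps were tested on simulated data. Groups were taken from the labels. The genes and lists were chosen with earlier results of these data known. Named genes were the 9 members, their relatives, and in each other list the genes past 1.5-fold and the 3 highest and 3 lowest ratios with status OK. Max, Srf, Map2k7, Gm28592, E230016M11Rik, the cell type markers and the early response genes nearest in ratio to each member were named beside these. Gene structure came from GENCODE M21 (longest basic protein-coding transcript) and promoter windows from RefSeq (GRCm38.p6). Protein sequences were not used here. The alternatives were pseudocounts of 1 and 0, ratios centred on the median gene, a common upper quartile, a lower threshold and one of 2-fold, and other filters on low values.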

Additional observations from a re-analysis of the deposited data

How the results depend on the processing

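The direction of each of the 9 genes was the same in 36 of 36 combinations of a gene with another pseudocount or scaling. A pseudocount cannot change which group is higher, and these scalings moved all genes alike. The count is therefore no test of the directions. The shift in log2 ratio was at most 0.017 for the genes other than Gadd45a, whose ratio moved from -1.31 to -1.06 with a pseudocount of 1 FPKM. The count of 6 genes at least 1.5-fold higher was the same with each pseudocount, scaling and filter and at a lower threshold, and was 1, Gadd45b, at 2-fold. With all rows above 0 in place of those with status OK, 1 gene, Gadd45a, was at least 1.5-fold lower, and the median log2 ratio was 0.64. At 2-fold, 6 other early response genes were higher and 0 lower, and 1.03% and 0.909% of all genes with status OK. With every gene of at least 1 FPKM, 8.98% of genes were at least 1.5-fold higher and 9.26% lower.

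No paired analysis was possible because the table holds 1 pooled value for each group and none for a single library. For the same reason replicates were not left out in turn. LIPUS and control wells shared plates, and transfer of ultrasound between wells was not tested. Planned identities between the proteins of the family members were not run.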
